A study of Mus musculus with 6 samples.

Results

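Early growth response (Egr) transcription factors and their Nab corepressors were examined in mouse cerebral cortex, in 3 arrays labelled Egr1/Egr3 double knockout (DKO-labelled arrays) and 3 arrays labelled wild type. The group comprised every probe set whose platform gene symbol was Egr1, Egr2, Egr3, Egr4, Nab1 or Nab2. These were 10 of the 45037 probe sets besides controls, and 6 of the 18193 genes with a symbol of their own. Total RNA of the cortex was hybridised to Affymetrix mouse expression arrays, and the labels give no allele design, strain, age, sex or batch. Nothing in them says that each array stands for its own animal, and the p-values cover the spread among these arrays alone. In a bulk sample, fewer cells of a type and less RNA per cell cannot be told apart.

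Egr1 to Egr4 encode zinc finger transcription factors that neurons induce within minutes of synaptic activity, through calcium and mitogen-activated protein kinase signals that act on serum response factor and CREB at their promoters. All 4 bind GC-rich DNA sites through a highly similar zinc finger domain. Nab1 and Nab2 have no DNA-binding domain of their own. They bind a short inhibitory region of Egr1, Egr2 and Egr3 and recruit the NuRD chromatin complex, which lowers transcription of target genes, and Nab genes are themselves reported targets of Egr factors. Egr4 lacks that region. In the brain Egr1 and Egr3 are known for roles in synaptic plasticity and memory, and Egr2 for myelination by Schwann cells and hindbrain patterning.

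The proximal promoters are shown because these genes are both sources and reported targets of Egr activity. RefSeq sequences of build GRCm38.p6 were used, limited to the 250 bases before a transcription start, and each is written 5′ to 3′ along the gene's strand. Capitals mark matches on either strand to the Egr sites GCGTGGGCG and GCGGGGGCG, to the cAMP response element TGACGTCA or its part TGACG, to the serum response element (CArG box) or to the TATA box TATAAA. Windows were found for Nab1, Nab2, Egr2 and Egr4. That of Nab1 (chr1:52500449-52500698, minus strand) held 3 Egr-type matches, and those of Egr2 (chr10:67537619-67537868, plus strand) and Egr4 (chr6:85513590-85513839, minus strand) held matches to the motifs of the inducing factors.
Nab1: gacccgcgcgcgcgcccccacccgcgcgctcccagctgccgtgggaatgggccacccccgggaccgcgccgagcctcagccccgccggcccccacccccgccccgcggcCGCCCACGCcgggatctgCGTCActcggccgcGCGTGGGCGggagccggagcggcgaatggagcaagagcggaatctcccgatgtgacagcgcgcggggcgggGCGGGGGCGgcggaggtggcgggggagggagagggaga
Egr2: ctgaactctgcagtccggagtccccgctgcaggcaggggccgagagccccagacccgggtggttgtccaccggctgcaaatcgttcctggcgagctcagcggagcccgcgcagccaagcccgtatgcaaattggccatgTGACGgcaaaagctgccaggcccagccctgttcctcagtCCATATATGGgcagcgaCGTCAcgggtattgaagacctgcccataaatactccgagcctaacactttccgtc
Egr4: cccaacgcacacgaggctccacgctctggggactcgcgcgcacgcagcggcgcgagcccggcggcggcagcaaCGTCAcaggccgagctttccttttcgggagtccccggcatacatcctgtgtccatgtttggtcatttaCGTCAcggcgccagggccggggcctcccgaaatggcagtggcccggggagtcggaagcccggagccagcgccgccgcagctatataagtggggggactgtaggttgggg
In Nab1, GCGTGGGCG lay 141 bases before the start on the opposite strand and 109 bases before it on the gene's strand, and GCGGGGGCG lay 38 bases before it. It also held TGACG 123 bases before the start, on the opposite strand. GCGTGGGCG was found in 0.536% and GCGGGGGCG in 2.57% of the 32851 promoter windows of this length. The Nab1 window was 80.8% G or C, and these shares are not adjusted for base composition. In Egr2 the serum response element lay 72 bases before the start, between copies of TGACG 111 and 55 bases before it, and 1.47% of all windows held a serum response element. Egr4 held TGACG 177 and 109 bases before the start, a motif found in 17.8% of all windows. The table lists 5 starts for Egr2, and the one shown is that whose window holds both motifs and begins farthest upstream. The full TGACGTCA (1.55% of windows) and the exact string TATAAA (12.4%) had no match in these 3 windows. Variants of the TATA box were not searched. The window of Nab2 held no match to any of the motifs. A match is a description of the letters and does not show that a factor binds there.

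Array medians lay between 36.2 and 39.5 signal units. Double knockout replicate 1 carries a title worded like those of the wild type arrays, with no genotype in it. Double knockout replicate 2 read 3140 for the female-specific transcript Xist, against at most 42.5 on the other 5 arrays. Spiked-in bacterial controls of wild type replicate 1 read at a median of 0.406 of their level on the other arrays. Signal at the 3' end of Gapdh divided by that at its 5' end, which reflects RNA integrity, separated the groups, at 0.881 to 0.9497 in the DKO-labelled arrays and 0.806 to 0.873 in wild type. The same ratio for Actb overlapped, at 1.68 to 1.89 in the DKO-labelled arrays and 1.58 to 1.95 in wild type. All 7 cortical projection neuron markers on the array lay above the array median on all 6 arrays, with a summed signal of 7502 to 10339 in the DKO-labelled arrays and 5564 to 9220 in wild type. Of 4 striatal markers, 3 lay above it on all 6 arrays, with sums of 449 to 569 and 454 to 629. Of the 6 arrays, wild type replicate 3 had the highest median log2 deviation from the 6-array mean for striatal markers (0.37). It had the lowest for cortical markers (-0.44). Differences in dissection were not tested. The 6 microglia markers summed to 2085 to 2541 in the DKO-labelled arrays and 2713 to 3110 in wild type and were all lower on average, and the part of this in the results was not tested. The 4 choroid plexus markers summed to 100.5 to 4775 and 151.8 to 10850, highest in wild type replicate 3. Their median log2 deviation in that array was 2.10. Pmp2 and Cldn19, the Schwann cell markers measured, lay below the median on all 6 arrays, with sums of 4.29 to 6.89 and 2.12 to 5.02.

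**Figure D1:**
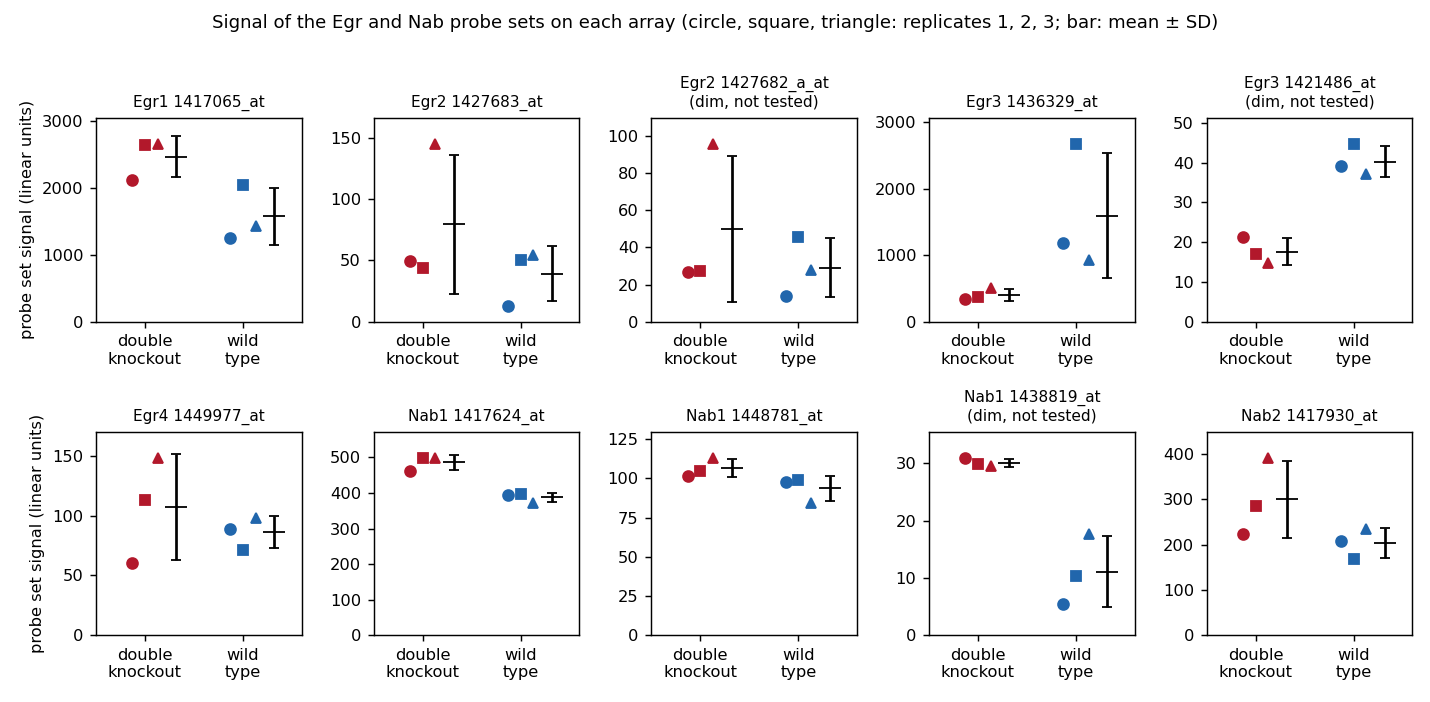
Each panel plots the signal of 1 probe set, assumed to be linear, with a point per array and the mean ± SD of each group beside it (n = 3 each). Both Egr3 probe sets are lower in all 3 DKO-labelled arrays, while Egr1 and all 3 Nab1 probe sets are higher there without overlap. Of all tested probe sets, 11.5% are higher and 10.7% lower without overlap.

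Egr3 was the member that fell, and Egr1, targeted by the same label, was not lower. Egr3 activates genes for plasticity and for muscle spindle development. Its brighter probe set, 1436329_at, read 338.5, 369.9 and 507.3 in double knockout replicates 1, 2 and 3, against 1189, 2670 and 924 in wild type replicates 1, 2 and 3. The highest DKO-labelled array stayed below the lowest wild type array. The log2 difference, double knockout label minus wild type on the log2(signal + 16) scale, was -1.80 (SE 0.32, 95% interval -2.52 to -1.09, limma adjusted p = 0.0361), a fold of 3.49 downwards. This was the 19th largest fall among the 22518 probe sets tested, of which 0.591% fell at an adjusted p under 0.05. The group means were 405 ± 89.8 and 1594 ± 941 signal units (SD, n = 3 each), and the wild type SD rests largely on replicate 2. Without wild type replicate 2 the log2 difference was -1.36 with an adjusted p of 0.00846.

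The second Egr3 probe set, 1421486_at, lay below the brightness filter and was not tested. It read 21.3, 17.0 and 14.7 in the DKO-labelled arrays, against 39.2, 44.7 and 37.1 in wild type. All 3 DKO-labelled arrays lay below their array medians and 2 of the 3 wild type arrays above theirs. The log2 difference was -0.75, and it depended on the pseudocount, at -1.16 with 1 and -0.35 with 64. The brighter probe set lay above the array median on all 6 arrays.

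The call of Egr3 depended on 4 of the 6 arrays. It held without wild type replicate 2 or without wild type replicate 3 (adjusted p = 0.0198), but its adjusted p was 0.0784 without wild type replicate 1, and 0.0932, 0.159 and 0.0845 without double knockout replicates 1, 2 and 3. Over all 6 fits with 1 array left out the log2 difference stayed between -2.12 and -1.36. Without wild type replicate 1 and double knockout replicate 2 together it was -1.88 with an adjusted p of 0.249.

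Egr1, the best studied member and a broad reporter of neuronal activity, read 2116, 2647 and 2657 in the DKO-labelled arrays, against 1247, 2054 and 1430 in wild type. The groups did not overlap, but double knockout replicate 1 and wild type replicate 2 stood close together. Egr1 differed by 0.67 on the log2 scale (SE 0.17, 95% interval 0.28 to 1.06, limma adjusted p = 0.108), which did not pass. Groups without overlap that were higher in the DKO-labelled arrays were found for 11.5% of all tested probe sets. The difference passed without wild type replicate 2 (0.87, adjusted p = 0.0172) and was 0.46 with an adjusted p of 0.442 without wild type replicate 1 and double knockout replicate 2 together. Without double knockout replicate 1, whose title names no genotype, it was 0.78 with an adjusted p of 0.125. The signal of the targeted gene therefore went with the label for Egr3 and not for Egr1. Where the probes lie and which parts of each gene were deleted is not given in the sources used here, and probes beyond a deletion would say nothing about genotype.

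The same signals can be written as the difference between these genes within each array. This restates the 2 results above and is not a separate test. The log2 signal of Egr3 minus that of Egr1 was -2.59, -2.79 and -2.35 in double knockout replicates 1, 2 and 3, against -0.07, 0.38 and -0.62 in wild type replicates 1, 2 and 3. The group difference of this value was -2.47, with a gap of 1.73 between the nearest arrays of the groups. It shows unequal change of the 2 probe sets, and its size is free of how an array was scaled apart from the pseudocount.

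**Figure D2:**
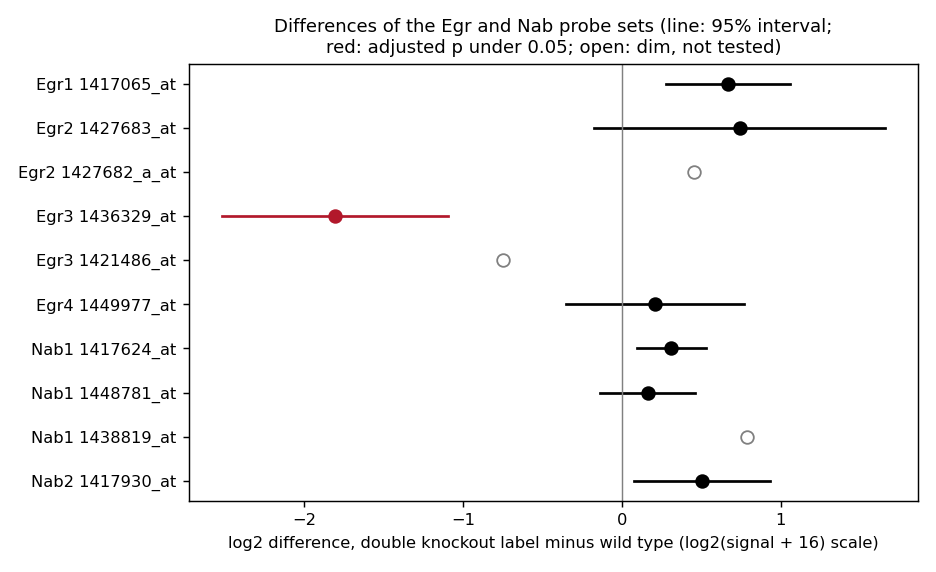
Points give the log2 difference of each probe set, double knockout label minus wild type, with 95% intervals for the 7 probe sets tested and open points for the 3 below the filter. The interval of Egr3 1436329_at lies wholly below 0, and the other tested probe sets have differences above 0, of which none passed the adjusted threshold.

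Egr2, the member that drives Schwann cell myelination, varied more between arrays than between groups. Probe set 1427683_at read 49.6, 43.7 and 144.8 in the DKO-labelled arrays, against 13.1, 50.2 and 54.0 in wild type. Double knockout replicate 3 stood highest and wild type replicate 1 lowest, and the remaining 4 arrays lay together. This gave a log2 difference of 0.74 (SE 0.41, 95% interval -0.18 to 1.66, limma adjusted p = 0.402). Probe set 1427682_a_at, below the filter, read 27.0, 27.5 and 95.7 in the DKO-labelled arrays, against 14.0, 45.7 and 27.9 in wild type. The same arrays were highest and lowest on it, and its log2 difference was 0.45 and became -0.0017 without double knockout replicate 3.

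Egr4, whose targets are less well known, read 60.5, 113.2 and 147.9 in the DKO-labelled arrays, against 88.9, 71.6 and 97.8 in wild type. The DKO-labelled arrays held both the lowest and the highest value. Egr4 differed by 0.21 on the log2 scale (SE 0.25, 95% interval -0.35 to 0.77, limma adjusted p = 0.722). It was -0.03 with double knockout replicate 3 left out and 0.52 with replicate 1 left out, so neither a rise nor a fall was resolved.

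Nab1, the more constantly expressed of the corepressors, was higher in the DKO-labelled arrays on all 3 of its probe sets, without overlap, though neither tested probe set passed. Of all tested probe sets, 11.5% were likewise higher without overlap. Probe set 1417624_at read 461.4, 498.3 and 498.2 in the DKO-labelled arrays, against 393.3, 398.0 and 373.3 in wild type. These values were tight within each group, and the gap between the groups exceeded the range within either. A log2 difference of 0.31 was obtained (SE 0.10, 95% interval 0.09 to 0.53, limma adjusted p = 0.162). It lay between 0.28 and 0.35 under all 17 alternatives, with adjusted p between 0.130 and 0.424. The residual SD of this probe set was 0.055, below that of all but 2.22% of tested probe sets. The intensity trend of limma sets the error of such a probe set mostly from others of like brightness.

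Probe set 1448781_at of Nab1 read 101.8, 105.1 and 113.0 in the DKO-labelled arrays, against 97.9, 98.7 and 84.4 in wild type. The nearest arrays were separated by little, and the log2 difference was 0.16 (SE 0.13, 95% interval -0.14 to 0.46, limma adjusted p = 0.593). Probe set 1438819_at read 30.9, 29.9 and 29.5 in the DKO-labelled arrays, against 5.39, 10.3 and 17.7 in wild type. All 6 values lay below their array medians, so it was not tested, and its log2 difference of 0.79 became 1.49 with a pseudocount of 1 and 0.33 with 64. The promoter of Nab1 is the one printed above with 3 Egr-type matches, from which no binding can be read.

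Nab2, the corepressor that Egr activity itself induces, read 222.8, 284.8 and 390.3 in the DKO-labelled arrays, against 207.2, 167.6 and 233.9 in wild type. Double knockout replicate 1 lay inside the wild type range and the other 2 above it. Nab2 differed by 0.50 on the log2 scale (SE 0.19, 95% interval 0.08 to 0.93, limma adjusted p = 0.230). It was 0.69 with double knockout replicate 1 left out and 0.30 with replicate 3 left out, and it passed in none of the 17 alternatives.

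Of the 7 tested member probe sets 1 passed, against 1.02% of all tested probe sets. The other 6 were higher in the DKO-labelled arrays and did not pass. The groups did not overlap for 4 of the 7, 3 higher and 1 lower, where 22.3% of all tested probe sets did not overlap. An unadjusted p under 0.05 was reached by 4 of the 7, and by 16.6% of all tested probe sets. The call was that of Egr3, which the label names as knocked out, so it says nothing about the family as a whole. Egr1, named by the same label, and both tested probe sets of Nab1 are also among the 7, so these counts are not independent. The intervals given above are not adjusted for the number of probe sets. The median log2 difference of the 7 was 0.31, against 0.01 over all tested probe sets. With 3 arrays a group, the smallest two-sided p of an exact permutation test is 0.1, so single genes were not tested that way.

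**Figure D3:**
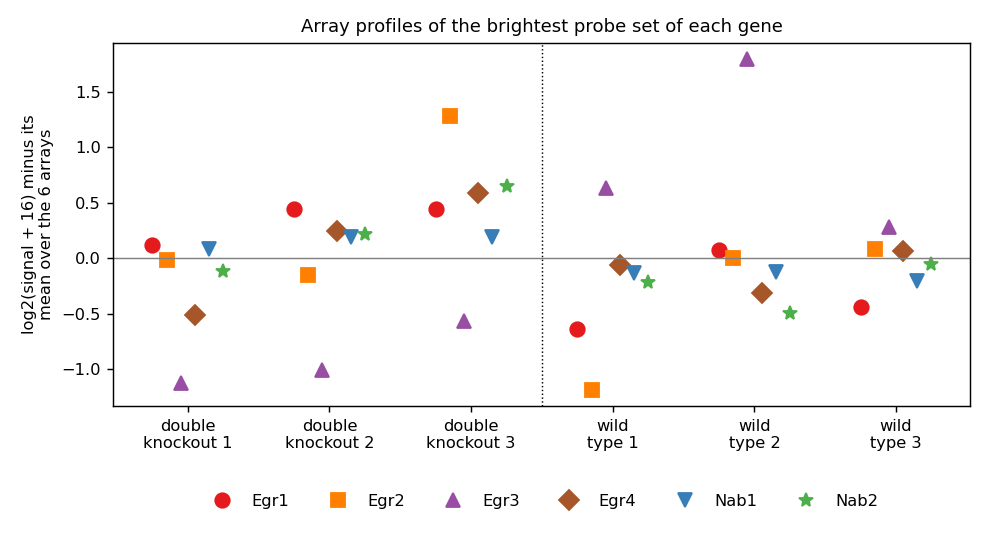
Points give the log2(signal + 16) of the brightest probe set of each gene on each array, minus its mean over the 6 arrays. Egr1, Egr3 and Nab1 each separate the groups, Egr1 narrowly (0.12 in double knockout replicate 1, 0.08 in wild type replicate 2). Of all tested probe sets, 22.3% separate them. Nab1 stays within 0.21 of its mean on every array, and Egr2, Egr4 and Nab2 are highest in double knockout replicate 3.

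The members differed in how much they varied among arrays of 1 group. The residual SD on the log2 scale was 0.75 for Egr2 1427683_at, 0.60 for Egr3 1436329_at and 0.42 for Egr4, placing them at the 99.5, 98.8 and 96.0 percentiles of tested probe sets. For Egr1 it was 0.29 and for Nab2 0.32, at the 85.7 and 88.9 percentiles. The median over all tested probe sets was 0.17, and the main Nab1 probe set stood well below it. By the brightest probe set of each gene, Egr2, Egr3 and Egr4 were thus the most variable members and Nab1 the steadiest, whereas the dim Egr3 probe set had a residual SD of 0.12 and the dim Nab1 probe set one of 0.23. Double knockout replicate 3 was the highest of the 6 arrays for Egr1, Egr2, Egr4 and Nab2, and the highest of the DKO-labelled arrays for Egr3. In wild type the order differed between genes: replicate 2 was highest for Egr1 and Egr3, and replicate 3 for Egr2, Egr4 and Nab2.

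Arc, a synaptic gene reported as an Egr target, varied in a like way. It read 45.9, 87.0 and 191.6 in the DKO-labelled arrays, against 33.2, 114.3 and 136.4 in wild type, with double knockout replicate 3 highest and wild type replicate 1 lowest, as for Egr2. Arc differed by 0.15 on the log2 scale (SE 0.47, limma adjusted p = 0.913), and it was -0.36 without wild type replicate 1 and -0.31 without double knockout replicate 3.

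Profiles over the 6 arrays were then compared with those of 19574 tested probe sets with 1 symbol, by the root mean square difference of log2 signals after centring each profile on its own mean. The profile of Egr3 had a root mean square of 1.02 about its own mean, and those nearest to it were Scn4b 1434008_at at 0.35, Syt4 1415844_at at 0.37 and Pdp1 1438201_at at 0.37. Pdp1 shared the high wild type replicate 2, with 310 to 429 in the DKO-labelled arrays, against 1711 in that array and 727 and 487 in wild type replicates 1 and 3. Syt4 lies within 5 Mb of Egr1, and its brighter probe set differed by only -0.20. For Egr1 (0.41 about its own mean) the nearest were both Saxo2 probe sets at 0.09 and 0.10, and Galnt9 at 0.11. For Egr2 (0.72) they were Dnaja2 1457233_at at 0.33, the immediate early gene Fos at 0.39 and Pnpt1 1444288_at at 0.39. For Egr4 (0.36) they were Gas5 1419291_x_at at 0.09, Tbca 1434588_x_at at 0.11 and Col4a1 1426348_at at 0.12. These probe sets were picked as the nearest of many over few arrays, and other probe sets of Dnaja2, Pnpt1, Gas5 and Tbca had different differences. Fos had 1 tested probe set, with 169.9, 262.5 and 471.9 in the DKO-labelled arrays and 163.2, 275.9 and 221.4 in wild type, again highest in double knockout replicate 3.

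**Figure D4:**
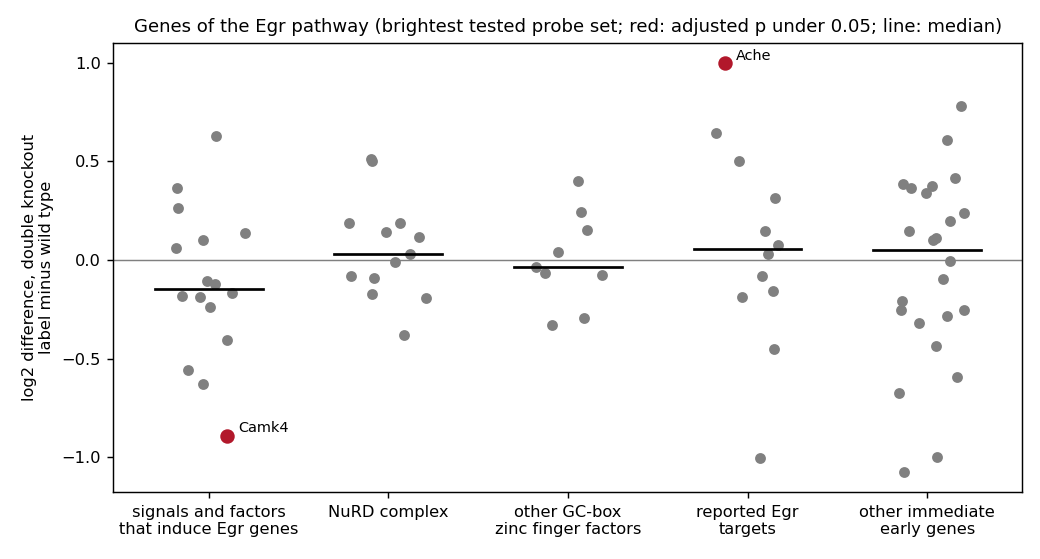
Each point is a gene of 1 of 5 lists around the Egr family, plotted by its log2 difference on its brightest tested probe set, with a line at the list's median. Camk4 at -0.89 and Ache at 0.998 are the genes that passed, and the medians lie between -0.15 and 0.05.

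Genes around the Egr family were counted in 5 lists, which hold 90 genes, 73 of them tested. Among the kinases and factors that induce Egr genes, 17 of 23 matched a probe set with 1 symbol and 16 were tested. Of these 1 fell, none rose and 15 did not pass, with a median log2 difference of -0.15. The gene that fell was Camk4, a calcium-dependent kinase that phosphorylates CREB in the nucleus. It read 715, 899 and 708 in the DKO-labelled arrays, against 1362, 1482 and 1482 in wild type, with no overlap. Camk4 differed by -0.89 on the log2 scale (SE 0.11, limma adjusted p = 0.00929), and did not pass when double knockout replicate 3 was left out (adjusted p = 0.0608) or without wild type replicate 1 and double knockout replicate 2 together (0.0583). A second Camk4 probe set differed by -1.06 (adjusted p = 0.0113), and the other 2 by -0.04 and -0.30 and did not pass. Camk4 lies within 5 Mb of Egr1. Serum response factor Srf differed by 0.06 and Creb1 by -0.11, and neither passed.

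The NuRD complex, which Nab proteins recruit, had 13 of 13 subunit genes tested, and none passed (median log2 difference 0.03). The smallest p-values were those of Chd3, a chromatin remodeller, and Hdac1, a histone deacetylase. Chd3 averaged 1186 ± 101.2 in the DKO-labelled arrays and 832 ± 136.9 in wild type (SD, n = 3 each, log2 difference 0.51, limma adjusted p = 0.103). Hdac1 averaged 194 ± 12.2 and 258 ± 17.0 (SD, n = 3 each, log2 difference -0.38, limma adjusted p = 0.145). Other zinc finger factors that bind GC-rich sites had 9 of 10 genes tested and none passed (median -0.03). Klf9 differed by 0.40 (adjusted p = 0.181) and Sp1 by -0.29 on its brighter probe set (adjusted p = 0.270), and by -0.02 on the other.

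Of 17 reported Egr targets, Nab1 and Nab2 among them, 12 were tested. The list's median log2 difference was 0.05, 1 gene rose, none fell and 11 did not pass. The gene that rose was Ache, which encodes acetylcholinesterase, the enzyme that breaks down acetylcholine. It read 307, 402 and 343 in the DKO-labelled arrays, against 200, 126 and 182 in wild type. The groups did not overlap, and Ache differed by 0.998 on the log2 scale (SE 0.17, limma adjusted p = 0.0307). It no longer passed when double knockout replicate 2 (adjusted p = 0.143) or replicate 3 (0.117) was left out, or wild type replicate 1 and double knockout replicate 2 together (0.184). Of 28 other immediate early genes, which neurons induce alongside the Egr family, 24 were tested. None passed, 12 were higher and 12 lower, and the median was 0.05. An unadjusted p under 0.05 was reached by 9 of the 24, against 16.6% of all tested probe sets. Without overlap, 3 were higher and 7 lower, against 11.5% and 10.7% of all tested probe sets. The smallest p-values were those of Jund, a member of the AP-1 family, and Ptgs2, an inducible cyclooxygenase. Jund read 715, 594 and 619 in the DKO-labelled arrays and 1008, 856 and 1077 in wild type (log2 difference -0.59, limma adjusted p = 0.0504). Ptgs2 read 24.6, 20.1 and 40.3, against 54.8, 98.0 and 65.5 (-0.998, adjusted p = 0.0760). Only 1 of its DKO-labelled values lay above the array median. The difference was -1.35 with a pseudocount of 1 and -0.56 with 64. A second Ptgs2 probe set differed by -1.23 (adjusted p = 0.0580). Jund lay at the threshold and passed in 5 of its 17 alternatives: a pseudocount of 64 (adjusted p = 0.0490), the stricter filter (0.0446), a robust trend (0.0395), array weights (0.0338) and wild type replicate 2 left out (0.0234), in a range of 0.0234 to 0.330. For these lists 0.426% of all tested probe sets rose and 0.591% fell past the threshold. In the other lists an unadjusted p under 0.05 was reached by 6 of 16 inducers, 3 of 13 NuRD genes, 2 of 9 zinc finger factors and 6 of 12 reported targets. Without overlap, in the same order, 3, 2, 1 and 3 genes were higher and 4, 1, 1 and 2 lower. The shares over all tested probe sets are those given for the immediate early genes.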

How the data were processed

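RNA of 6 cortex samples was measured on Affymetrix arrays. The deposited intensity values were assumed to be linear probe set signals. How they were summarised, any scaling before deposit, and the software and build are not given in the sources used here. Samples were grouped by the labels' descriptions. Symbols came from the platform annotation and were checked by gene number in RefSeq (GRCm38.p6), used also for neighbourhood.

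Values were transformed to log2(signal + 16) after a floor of 1, which applied to 4.35% of them. Of 45037 probe sets besides 64 controls, the 22518 whose mean lay above the median were tested with limma 3.58.1 in R 4.3.3 (group as the only term, intensity trend), with two-sided p-values adjusted by Benjamini-Hochberg over all tested probe sets and 0.05 as threshold. A gene in a list stands by its brightest tested probe set. Precision is limited by the number of arrays.

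The members and lists were chosen with earlier results of these data known. Named genes are all members, Arc, the changed genes of each list (at most 4) or else the 2 with the smallest p, and the 3 nearest profiles of each Egr gene. Pdp1, Syt4 and Fos values, and those of Srf and Creb1, were picked for mention after they were seen. Alternatives were other pseudocounts, scalings, filters, trends, array weights, thresholds, a replicate block and arrays left out. Figures used matplotlib 3.10.9 in Python 3.11.15.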

Additional observations from a re-analysis of the deposited data

How the results depend on the processing

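With other pseudocounts, scalings or array weights, or with the stricter filter at the 75% quantile, Egr3 kept its call and Egr1 stayed short of it. The log2 difference of Egr3 remained -1.80 without a call with no filter (adjusted p = 0.177), no intensity trend (0.0692) and a robust trend (0.143), and was -1.88 without a call (0.249) when wild type replicate 1 and double knockout replicate 2 were left out together. That removal, chosen after earlier results were known, gave 0.46 for Egr1. The member count of 1 became 0 in these 4 settings and at an adjusted p under 0.01. The 229 calls over all probe sets became 10 with no filter, 131 with no intensity trend, 12 without those arrays, and 42 and 586 at thresholds of 0.01 and 0.10. The 2 pathway calls became 0 with no filter and without those arrays, 1 with no intensity trend and at 0.01, 4 with the robust trend and the replicate block, and 8 at 0.10. With each array left out in turn, Egr3 ranged between -2.12 and -1.36, Egr1 between 0.52 and 0.87, the members called between 0 and 2, the pathway calls between 0 and 3, and all calls between 34 and 292. The lowest count of 34 came without double knockout replicate 3, with 143 and 53 without double knockout replicates 1 and 2 and 97 without wild type replicate 1. Egr1 passed without wild type replicate 2. Egr4 ranged between -0.029 (without double knockout replicate 3) and 0.52 and Arc between -0.36 and 0.56, Arc being -0.31 without double knockout replicate 3 and -0.31 without the pair of arrays. The cause of these shifts was not tested. The groups share only replicate numbers, and deviations of same-numbered arrays correlated at -0.15, 0.0013 and -0.10, with 0 of 6 arrays closest to their own number. With the replicate block all calls numbered 182, Egr3 had an adjusted p of 0.0226 and Egr1 of 0.0617.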
